A study of Mus musculus with 8 samples.

Results

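The genes described here are 10 that carry the insulin signal to the nucleus of the liver cell and answer it there: the transcription factors Foxo1 and Foxo3, the insulin receptor Insr, its adaptors Irs1 and Irs2, the kinases Akt1 and Akt2, and the target genes Pck1, G6pc and Igfbp1. They were taken by symbol from the deposited count table, where all 10 were found among 24317 listed genes, and all 10 had enough reads to be tested. The set was put forward with results of the same comparison in view, so it counts as selected on the fold changes and p-values of high salt against normal chow, and the members' own differences are given as a description. The mice were C57BL/6, and RNA was sequenced from whole liver. In the high-salt group (4 libraries) the chow was rich in sodium, with 6% NaCl, and was given for 6 weeks. The control group (4 libraries) ate normal chow. No genotype change, drug or other treatment is labelled in either group. The labels used here give no age, no sex, no time of day and no feeding state at the time the livers were taken, and they leave unsaid whether the libraries stem from different animals. p-values therefore measure the spread between these libraries, part of which may be technical. High-salt libraries bear titles starting with the letter N, and every direction given here rests on the diet label.

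As background, insulin binds its receptor, a tyrosine kinase, which phosphorylates the IRS adaptors and, through phosphatidylinositol 3-kinase, activates AKT. AKT phosphorylates FOXO proteins, which then leave the nucleus, so that genes they switch on are turned down after a meal and come back in fasting. In liver FOXO1 is best known for driving glucose output through Pck1 and G6pc and for driving Igfbp1 and Irs2. Much of this control acts on protein phosphorylation and localisation, which RNA counts do not measure.

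The libraries held 16620368 to 18639685 counted reads. Levels are given as CPM, the usual counts per unit of sequencing depth, with library sizes scaled by TMM, a factor that corrects for differences in RNA composition. The least counted member was Irs1, with 174 to 269 reads in a library, and the most counted was Pck1, with 43448 to 69627. Hepatocyte markers were abundant in every library: Alb, Ttr, Apoa1, Apob, Fgb and Serpina1c together made 130900 to 137000 CPM in high salt and 123300 to 141200 CPM in normal chow. Pancreatic enzymes (Prss2, Cpa1 and Pnlip) summed to at most 0.383 CPM in high salt and 0.166 CPM in normal chow. Across 10 marker lists edgeR and limma-voom called 0 genes and DESeq2 called 1, the Kupffer cell receptor Marco, at 23.1, 14.8, 12.9 and 17.4 CPM in high salt, against 12.3, 6.95, 7.10 and 3.92 CPM in normal chow (DESeq2 adjusted p = 0.0032; edgeR adjusted p = 0.248). The 6 Kupffer markers, 2 of 6 with a log2 fold change above 0, summed to 353.2 to 453 CPM in high salt and 391.4 to 431.8 CPM in normal chow. Markers of B and plasma cells, 5 of 5 tested with a log2 fold change above 0 and 0 called, summed to 9.19 to 70.1 CPM in high salt and 5.46 to 12.6 CPM in normal chow, with high salt 2 the highest. Normal chow 2 stood apart by Cyp1a1, a detoxifying enzyme induced through the aryl hydrocarbon receptor, at 2019 CPM against 0.587 to 2.76 CPM in the other 7 libraries. The part that these libraries play in the values below was not tested beyond leaving each out in turn. In bulk liver, fewer cells of a type and less RNA per cell cannot be told apart.

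The control regions of the target genes show where the FOXO and cAMP signals are thought to meet. RefSeq windows of 250 bases before to 50 bases after the transcription start (GRCm38.p6) were found for 9 of the 10 members, all but Insr. They were searched on both strands for TGTTTTG and TATTTTG, the insulin response sequence through which FOXO proteins act, and for the forkhead core GTAAACA. They were also searched for TNACGTNA, a loose pattern like the cAMP response element, whose matches are called cAMP-type elements below. The windows of Igfbp1, G6pc, Pck1 and Irs2 are printed because these members are known as FOXO targets, with matches in capitals. Insr is also known as one, and no window was found for it.
Igfbp1, chr11:7197537-7197836, plus strand: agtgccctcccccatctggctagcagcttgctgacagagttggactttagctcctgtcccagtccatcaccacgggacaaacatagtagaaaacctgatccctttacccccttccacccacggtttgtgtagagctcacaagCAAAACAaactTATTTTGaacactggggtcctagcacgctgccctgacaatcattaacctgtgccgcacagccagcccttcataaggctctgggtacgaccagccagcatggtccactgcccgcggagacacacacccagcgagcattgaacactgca
G6pc, chr11:101367466-101367765, plus strand: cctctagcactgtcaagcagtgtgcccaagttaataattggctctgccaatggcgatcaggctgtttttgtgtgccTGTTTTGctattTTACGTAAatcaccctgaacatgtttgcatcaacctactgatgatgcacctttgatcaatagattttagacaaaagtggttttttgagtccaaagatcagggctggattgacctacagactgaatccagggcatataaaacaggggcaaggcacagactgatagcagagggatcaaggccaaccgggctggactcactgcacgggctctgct
Pck1, chr2:173152823-173153122, plus strand: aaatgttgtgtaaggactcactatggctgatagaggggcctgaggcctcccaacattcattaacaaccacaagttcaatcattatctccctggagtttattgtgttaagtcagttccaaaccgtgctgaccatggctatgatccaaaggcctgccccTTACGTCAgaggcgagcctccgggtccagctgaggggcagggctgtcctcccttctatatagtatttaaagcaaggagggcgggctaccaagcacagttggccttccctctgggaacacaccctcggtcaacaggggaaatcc
Irs2, chr8:11008880-11009179, minus strand: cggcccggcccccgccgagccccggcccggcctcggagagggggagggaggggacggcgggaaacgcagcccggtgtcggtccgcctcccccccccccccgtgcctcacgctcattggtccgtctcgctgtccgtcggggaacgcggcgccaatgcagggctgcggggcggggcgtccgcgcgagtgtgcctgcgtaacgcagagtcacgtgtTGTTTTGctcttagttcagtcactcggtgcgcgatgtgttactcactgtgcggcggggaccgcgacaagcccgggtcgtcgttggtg

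In Igfbp1, which encodes a secreted binding protein of insulin-like growth factors, both forms of the insulin response sequence stand side by side and in opposite orientation, starting 108 and 97 bases before the start. G6pc, the last enzyme of glucose release, holds TGTTTTG 174 bases and a cAMP-type element 162 bases before its RefSeq start. The counted G6pc gene begins at chr11:101367561, within this window and upstream of the RefSeq start. Pck1, which makes phosphoenolpyruvate from oxaloacetate, holds a cAMP-type element 93 bases before its start and no insulin response sequence within this window. Irs2 holds TGTTTTG 37 bases before its RefSeq start, and Irs1 holds it at 111 and at 32 bases. The Irs2 window lies wholly upstream of the counted gene, which begins at chr8:11008458 on the minus strand. Akt2 holds a cAMP-type element at 49 bases and Akt1 the forkhead core at 161 bases. The windows of Foxo1 and Foxo3 held no match. Over 32851 windows of all genes, 10.2% held TGTTTTG or TATTTTG, 3.65% held GTAAACA and 4.49% held TNACGTNA. A match describes letters and is no measure of binding.

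**Figure D1:**
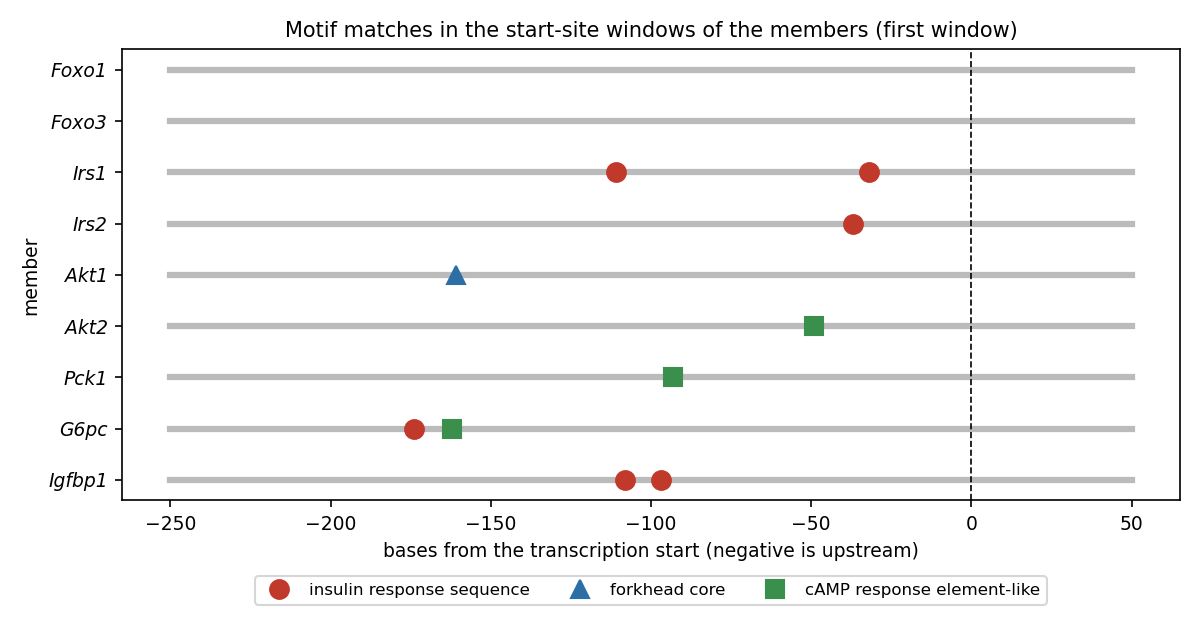
Motif matches in the first RefSeq window of 9 members, with the distance in bases from the transcription start on the x axis and 1 grey bar per member. Circles mark the insulin response sequence, the triangle the forkhead core and squares the cAMP-type element; Igfbp1 has circles 108 and 97 bases upstream, and the bars of Foxo1 and Foxo3 carry no mark.

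Foxo1 was lower in every high-salt library than in any normal-chow library. Foxo1 (ENSMUSG00000044167, GRCm38, chr3:52268336-52353221, plus strand) was at 46.6, 45.6, 45.1 and 49.8 CPM in high salt 1 to 4, against 66.4, 70.1, 54.7 and 77.5 CPM in normal chow 1 to 4. The high-salt values lay close together, with a coefficient of variation of 4.56%, and the normal-chow values were spread, with 14.1%. The means were 46.8 ± 2.13 CPM in high salt and 67.2 ± 9.49 CPM in normal chow (SD, n = 4 each). In edgeR's quasi-likelihood fit over 13341 genes Foxo1 fell by 30.4%, a log2 fold change of -0.52 ± 0.10 (SE), with a Benjamini-Hochberg adjusted p = 0.0432. It was the only one of the 10 members that passed the threshold of 0.05 in that fit. Over all tested genes 0.150% passed it as lower and 0.150% as higher. At an unadjusted p below 0.05, 3 members (Foxo1, Foxo3 and Pck1) were lower, against 5.60% of all tested genes. Nothing is read from these shares, since the members were brought together with this result known.

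The call on Foxo1 lay close to the threshold. Leaving out normal chow 3, the lowest library of that group, gave a log2 fold change of -0.61 (adjusted p = 0.025), and leaving out any other single library gave adjusted p-values between 0.0501 and 0.142, with log2 fold changes from -0.56 to -0.45. The annotation places an antisense gene, Gm20402, over exons of Foxo1. Gm20402 has 0 reads over the 8 libraries here, a value also given to a gene that the deposited table does not list. Whether the counting used strand was not found in the labels.

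Foxo3, the paralog of Foxo1 that shares many of its targets, was at 82.1, 61.2, 70.9 and 76.1 CPM in high salt and at 84.4, 86.7, 82.9 and 81.8 CPM in normal chow. The groups met only at high salt 1, which lay just above normal chow 4. The log2 fold change of Foxo3 was -0.21 ± 0.09 (SE; edgeR adjusted p = 0.411). Foxo4, another FOXO factor, averaged 31.0 ± 1.35 CPM in high salt and 29.4 ± 3.33 CPM in normal chow (SD, n = 4 each). Foxo6 was at most 0.219 CPM in any library and was not tested. Per kilobase of exon, Foxo1 took 33.2, 39.4, 35.7 and 36.4% of the summed level of Foxo1 and Foxo3 in high salt 1 to 4, against 40.7, 41.4, 36.6 and 45.3% in normal chow 1 to 4.

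**Figure D2:**
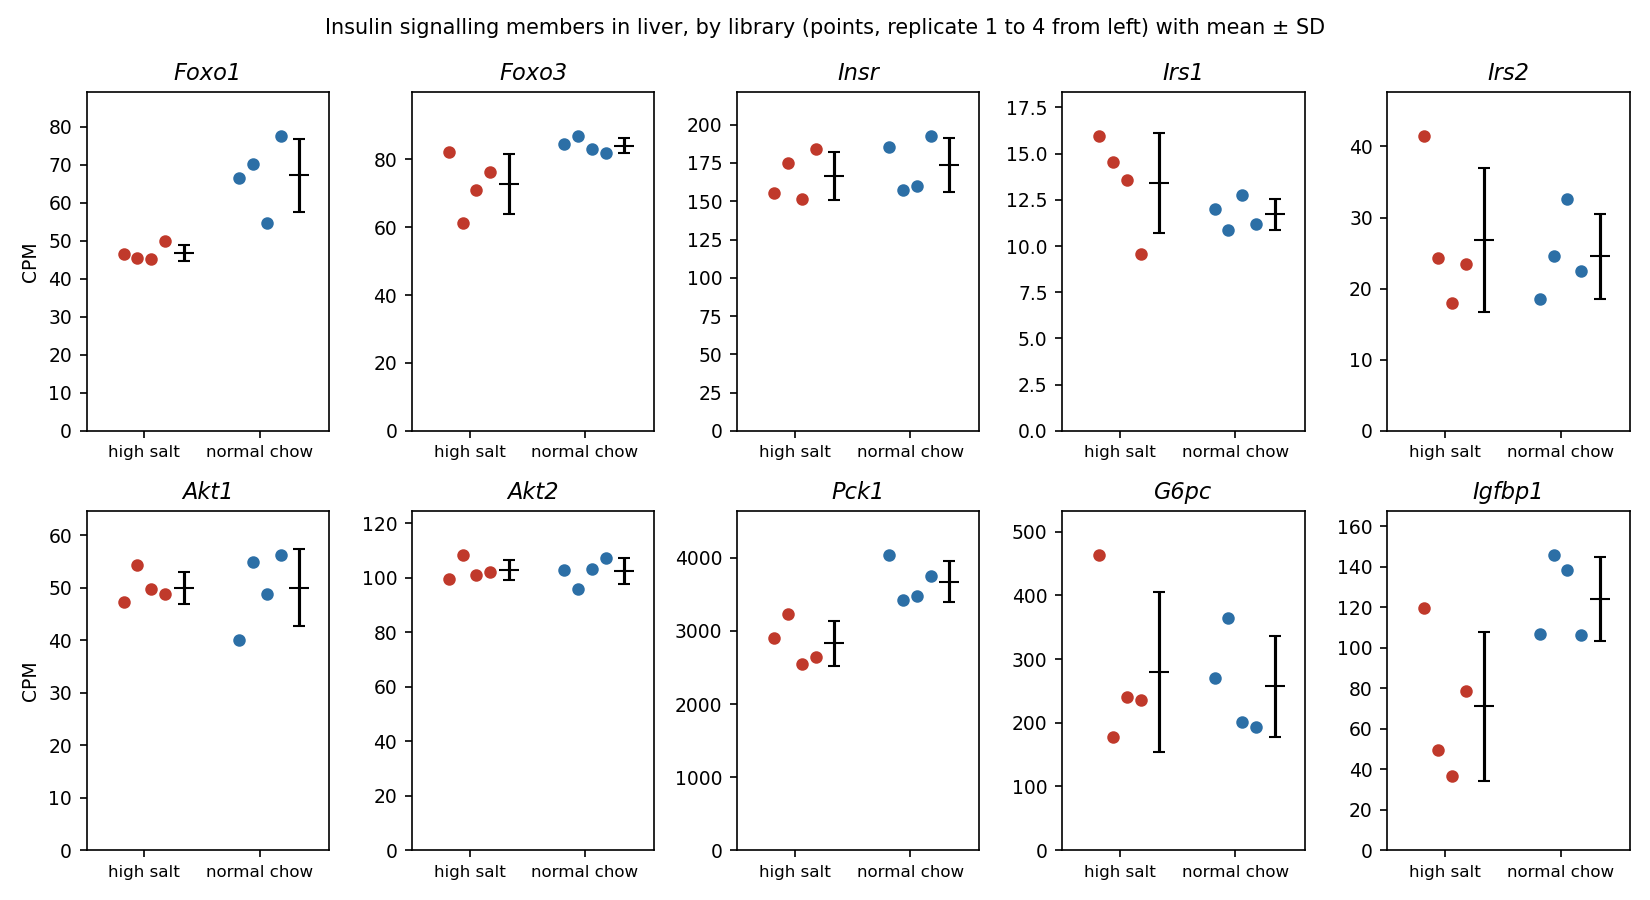
CPM of each of the 10 members, 1 panel per gene, with 4 high-salt libraries as red points on the left and 4 normal-chow libraries as blue points on the right; the black bars give the mean ± SD of each group. The groups do not overlap in Foxo1 and Pck1, while Akt1 and Akt2 average 49.99 and 102.7 CPM in high salt and 49.97 and 102.3 CPM in normal chow.

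The genes upstream of FOXO showed small differences between the diets. Insr, which encodes the receptor, was at 155.6, 174.7, 151.7 and 184.2 CPM in high salt and at 185.5, 157.3, 159.8 and 192.5 CPM in normal chow, and the groups overlapped over most of their range. Its log2 fold change was -0.062 ± 0.096 (SE; edgeR adjusted p = 0.868), and it ran from -0.12 to -0.0091 when 1 library was left out. Akt1 was at 47.2 to 54.3 CPM in high salt and 40.0 to 56.1 CPM in normal chow, so that the high-salt range lay inside that of normal chow. Its log2 fold change was 0.0007 ± 0.10 (SE). Akt2, the AKT form that carries most of insulin's metabolic action in liver, varied little, at 99.6 to 108.1 CPM in high salt and 95.95 to 107.3 CPM in normal chow. The log2 fold change of Akt2 was 0.0055 ± 0.072 (SE). The fold changes of Akt1 and Akt2 were smaller than their errors, and their sign turned between settings.

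The adaptors Irs1 and Irs2 overlapped between the diets, and Irs2 varied widely between libraries. Irs2, which FOXO factors induce in fasting, was at 41.4, 24.3, 17.9 and 23.5 CPM in high salt and at 18.5, 24.5, 32.6 and 22.5 CPM in normal chow. High salt 1 held the highest and high salt 3 the lowest value of all 8 libraries, so the groups overlapped fully. Irs2 had a log2 fold change of 0.13 ± 0.28 (SE; edgeR adjusted p = 0.919), which was -0.17 without high salt 1. Irs1 was at 15.9, 14.6, 13.5 and 9.59 CPM in high salt and at 12.0, 10.9, 12.7 and 11.2 CPM in normal chow. Of its high-salt libraries 1, 2 and 3 lay above all normal-chow libraries and high salt 4 lay below them. The log2 fold change of Irs1 was 0.20 ± 0.14 (SE; edgeR adjusted p = 0.675), and it was 0.097 without high salt 1 and 0.32 without high salt 4. Exons of Irs1 and of Irs2 each overlap a gene on the other strand, Gm9747 with 0 and 9530052E02Rik with 2 reads over the 8 libraries. For Gm9747 too, 0 may mean that the gene was not listed.

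The 3 classic target genes showed different patterns. Pck1 lay below all normal-chow libraries in each high-salt library, Igfbp1 did so in high salt 2, 3 and 4, and G6pc overlapped fully between the diets. Pck1 (chr2:173153048-173159273) was at 2905, 3234, 2548 and 2645 CPM in high salt, against 4034, 3428, 3474 and 3749 CPM in normal chow. The highest of its high-salt libraries lay below the lowest normal-chow library. The log2 fold change of Pck1 was -0.37 ± 0.10 (SE), with an edgeR adjusted p = 0.148 and a DESeq2 adjusted p = 0.0115. DESeq2 thus called 2 members as lower, Foxo1 (adjusted p = 7.74e-04) and Pck1, where it called 1.10% of all genes as lower. Groups without overlap and lower in high salt were seen in 2 of the 10 members, Foxo1 and Pck1, and in 3.37% of all tested genes. The reverse was seen in 0 members and in 2.98% of all tested genes, and nothing is read from these shares either.

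Igfbp1 had the largest log2 fold change of the 10 members and also a wide spread. Igfbp1 (chr11:7197782-7202546) was at 119.4, 49.6, 36.7 and 78.3 CPM in high salt, against 106.6, 145.5, 138.2 and 106.1 CPM in normal chow. High salt 1 lay within the normal-chow range, and the other high-salt libraries lay below it. The coefficient of variation was 51.6% in high salt and 16.7% in normal chow. Its log2 fold change was -0.81 ± 0.38 (SE; edgeR adjusted p = 0.513), and it was -1.18 without high salt 1 (adjusted p = 0.273). G6pc (chr11:101367561-101377903) was at 462.7, 178.4, 239.7 and 235.9 CPM in high salt and at 270.1, 364.8, 202.0 and 193.5 CPM in normal chow. Its highest and its lowest value were both in high-salt libraries, 1 and 2. G6pc had a log2 fold change of 0.12 ± 0.35 (SE; edgeR adjusted p = 0.950), and its sign turned to -0.25 without high salt 1.

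High salt 1 was the highest of all 8 libraries in 3 members, Irs1, Irs2 and G6pc, and the highest high-salt library in Igfbp1 and Foxo3. Against the mean of its own group on the log2 scale it lay 0.70 higher in Irs2, 0.82 higher in G6pc and 0.89 higher in Igfbp1. In Foxo1 the same library differed from its group mean by -0.0049, and in Pck1 by 0.042. Among the normal-chow libraries, normal chow 2 was the highest in both G6pc and Igfbp1, while normal chow 3 was the highest in Irs2. None of these values was far enough from its group to pass Dixon's test.

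**Figure D3:**
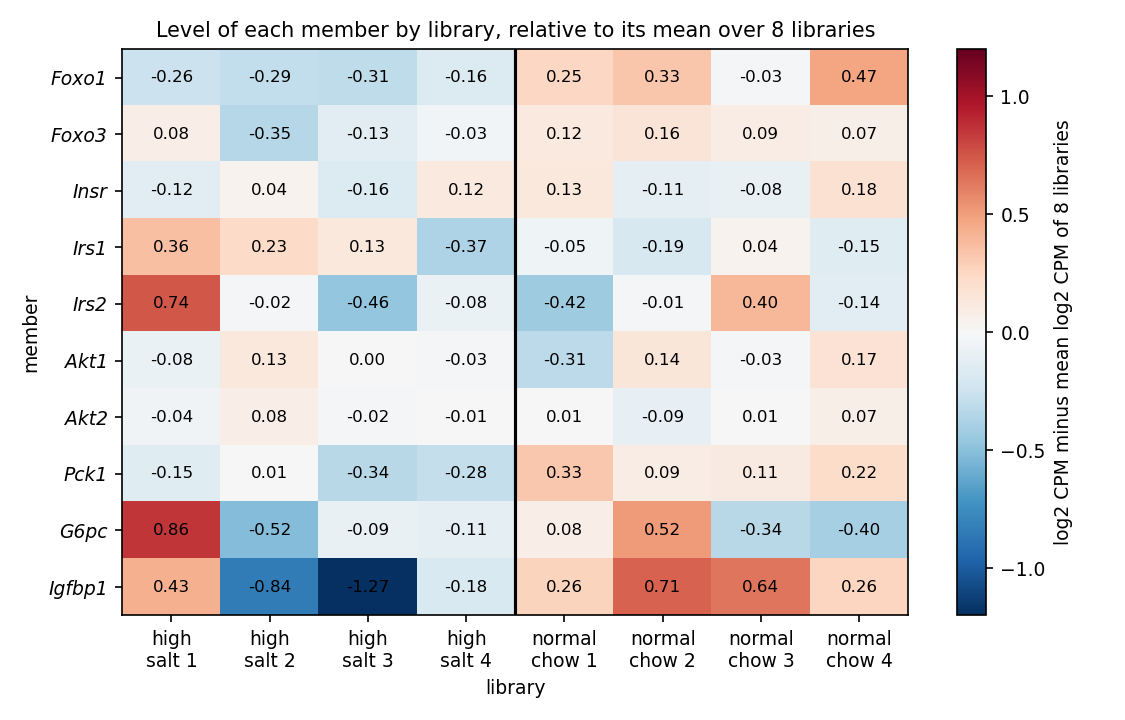
Level of each member (rows) in each library (columns, high salt left of the black line and normal chow right of it) as log2 CPM minus the mean log2 CPM of the 8 libraries; red is above and blue below that mean. Foxo1 is below its mean in all 4 high-salt libraries, and the column of high salt 1 is red in Irs1, Irs2, G6pc and Igfbp1.

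Set against exon length, the members spanned a wide range of abundance. Pck1 stood highest with 826 ± 89.5 CPM per kilobase in high salt and 1071 ± 81.8 in normal chow (SD, n = 4 each). G6pc followed with 115.7 ± 52.0 CPM per kilobase in high salt and 106.7 ± 32.8 in normal chow, and Igfbp1 with 46.6 ± 24.0 in high salt and 81.4 ± 13.6 in normal chow. G6pc and Igfbp1 overlapped in both groups. In high salt G6pc ranged from 73.9 to 191.7 and Igfbp1 from 24.1 to 78.3 CPM per kilobase. In normal chow G6pc ranged from 80.1 to 151.1 and Igfbp1 from 69.55 to 95.4. Akt2, Akt1, Insr and Foxo3 came next, between 9.59 and 14.4 CPM per kilobase on average in high salt and between 11.1 and 14.3 in normal chow. In high salt, Akt1 with 11.5 to 13.3 and Insr with 11.03 to 13.4 CPM per kilobase could not be ordered within their spread. Foxo1 was below Foxo3 in every library, with 5.40 ± 0.246 CPM per kilobase in high salt and 7.75 ± 1.10 in normal chow. Irs2 had 4.24 ± 1.61 CPM per kilobase in high salt and 3.88 ± 0.938 in normal chow, and its high-salt range took in that of Foxo1. Irs1 was lowest with 1.47 ± 0.298 in high salt and 1.28 ± 0.0912 in normal chow.

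The rest of the pathway was read from 9 lists that together held 150 tested genes, the members included. Of these 2 fell (Foxo1 and Got1) and 0 rose in the edgeR fit, where 0.300% of all tested genes passed in either direction. DESeq2 called 8, 6 lower and 2 higher, where it called 1.10% of all genes as lower, 0.765% as higher and 1.86% in either direction. The median log2 fold change of the 150 genes was -0.016, and that of all tested genes was 0.0060. At an unadjusted p below 0.05, 15 of the 150 genes were lower and 11 were higher, against 10.9% of all tested genes in either direction. Groups without overlap were seen in 11 genes as lower and in 8 as higher, against 3.37% and 2.98% of all tested genes. The lists were written with earlier results of these data known, so nothing is read from the counts within them.

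In the list of the insulin receptor and its relay, 0 of 20 tested genes passed by edgeR, DESeq2 or limma-voom. At an unadjusted p below 0.05 there were 2, against 10.9% of all tested genes. The list had a median log2 fold change of 0.058. Its genes of smallest p were Grb2, an adaptor towards the RAS branch (log2 fold change ± SE of -0.21 ± 0.07, and likewise for the genes that follow), and Pik3r1, the regulatory subunit of phosphatidylinositol 3-kinase (0.20 ± 0.08). Grb2 was at 39.8 to 45.2 CPM in high salt and at 47.4 to 51.6 CPM in normal chow, without overlap. Among the brakes of insulin signalling, 0 of 16 passed by any of the 3 tools, and the median was 0.040. Of these brakes 1 had an unadjusted p below 0.05, against 10.9% of all tested genes. Phlpp2, a phosphatase that acts on AKT, had 0.67 ± 0.21, and Grb14, which binds and restrains the receptor, had 0.19 ± 0.09. In the list of AKT substrates and the mTORC1 branch, 0 of 14 passed by any of these tools or at an unadjusted p below 0.05. Its median was -0.024, with Rps6kb1, the S6 kinase, at 0.19 ± 0.10 and Tbc1d1, a GTPase-activating substrate of AKT, at -0.21 ± 0.12.

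Among the FOXO factors and their regulators, edgeR called 1 of 16 tested genes lower (Foxo1) and 0 higher. Over all tested genes it called 0.150% lower and 0.150% higher. The median log2 fold change of this list was 0.017. Of 27 FOXO target genes edgeR and limma-voom called 0. DESeq2 called 3 lower (against 1.10% of all genes) and 1 higher (against 0.765%). At an unadjusted p below 0.05 there were 7 of the 27 (5 lower, 2 higher), against 10.9% of all tested genes. For FOXO targets the median was -0.080. Bcl6, a transcriptional repressor, was at 16.3, 15.9, 17.6 and 11.3 CPM in high salt, against 27.1, 20.0, 23.0 and 29.7 CPM in normal chow. The groups of Bcl6 did not overlap (log2 fold change -0.71 ± 0.15, SE; edgeR adjusted p = 0.0914; DESeq2 adjusted p = 0.00255). Bcl2l11, which promotes cell death, lay the other way, at 15.8, 11.9, 9.85 and 15.2 CPM in high salt and at 8.05, 7.87, 8.19 and 9.39 CPM in normal chow. Its log2 fold change was 0.65 ± 0.15 (SE; edgeR adjusted p = 0.107; DESeq2 adjusted p = 0.0111), and edgeR called it without high salt 3 (adjusted p = 0.0486). Gadd45a, Klf15 and Pdk4 were chosen after their values were seen. Gadd45a, the other higher gene at an unadjusted p below 0.05, overlapped between the groups (0.93 ± 0.38, SE; edgeR adjusted p = 0.392). Klf15 and Pdk4 were lower without overlap. In this list 5 genes were lower without overlap and 1 was higher, against 3.37% and 2.98% of all tested genes. Klf15, a transcription factor of amino acid use in gluconeogenesis, averaged 252 ± 16.1 CPM in high salt and 300.1 ± 16.7 CPM in normal chow, and Pdk4, which holds back pyruvate oxidation, 5.06 ± 0.345 CPM in high salt and 6.19 ± 0.406 CPM in normal chow (SD, n = 4 each).

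In the list of gluconeogenic enzymes, which shares Pck1 and G6pc with the members, edgeR called 1 of 19 tested genes lower (Got1) and 0 higher. Over all tested genes it called 0.150% lower and 0.150% higher. DESeq2 called 3 lower and 0 higher, against 1.10% and 0.765% of all genes. At an unadjusted p below 0.05, 6 were lower and 2 were higher. Over all tested genes 5.60% were lower at that level, and 10.9% passed it in either direction. Of the 19, 15 had a log2 fold change below 0, and the median was -0.14. Got1, the cytosolic aspartate aminotransferase that links aspartate to oxaloacetate, was at 306, 261.9, 294.8 and 367 CPM in high salt, against 645, 499.1, 599 and 582.5 CPM in normal chow. Its log2 fold change was -0.92 ± 0.11 (SE; edgeR adjusted p = 0.00611). Fbp1, fructose bisphosphatase, chosen after its values were seen, was at 949 to 1036 CPM in high salt and 1123 to 1334 CPM in normal chow (-0.28 ± 0.09, SE; edgeR adjusted p = 0.220; DESeq2 adjusted p = 0.0349). The 2 higher genes, also chosen after their values were seen, were Slc16a1, a lactate transporter (0.43 ± 0.12, SE; edgeR adjusted p = 0.186), and Ldha, a lactate dehydrogenase subunit (0.27 ± 0.11, SE; edgeR adjusted p = 0.401). Pcx, pyruvate carboxylase, chosen in the same way, had 0.045 ± 0.090.

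Of 24 genes of glucagon and cAMP signalling and of gluconeogenic transcription factors, edgeR and limma-voom called 0. DESeq2 called 1 lower and 1 higher, against 1.10% and 0.765% of all genes. At an unadjusted p below 0.05, 2 were lower and 4 higher, against 10.9% of all tested genes in either direction. The median was 0.055. In this list 3 genes were lower without overlap and 4 were higher, against 3.37% and 2.98% of all tested genes. Ppargc1a, the coactivator that works with FOXO1 on gluconeogenic genes, was at 11.9, 17.1, 17.5 and 18.4 CPM in high salt, against 27.5, 19.8, 32.5 and 24.9 CPM in normal chow. The groups of Ppargc1a did not overlap (-0.69 ± 0.16, SE; edgeR adjusted p = 0.136; DESeq2 adjusted p = 0.00683). Nr4a1, an orphan nuclear receptor induced by cAMP, was low everywhere, at 3.20, 1.75, 2.81 and 2.54 CPM in high salt and at 1.39, 0.521, 1.03 and 0.608 CPM in normal chow. All its high-salt values lay above the normal-chow values (1.53 ± 0.32, SE; edgeR adjusted p = 0.0794; DESeq2 adjusted p = 0.00201), and edgeR called it without normal chow 1 (adjusted p = 0.0302). Gcgr, the glucagon receptor, chosen after its values were seen, averaged 151.1 ± 5.68 CPM in high salt and 137.7 ± 12.5 CPM in normal chow (SD, n = 4 each).

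Genes that insulin induces for fat synthesis had 0 of 13 tested members called by edgeR, DESeq2 or limma-voom. At an unadjusted p below 0.05 there were 3 of them (2 lower, 1 higher), against 10.9% of all tested genes. The median log2 fold change of the 13 genes was -0.30, and 10 of the 13 were below 0. Of the 13, 0 were lower without overlap and 1 was higher, against 3.37% and 2.98% of all tested genes. Acacb, the acetyl-CoA carboxylase of mitochondria, overlapped at high salt 4, with 99.0, 76.8, 135.2 and 202.7 CPM in high salt and 229.4, 211.9, 251.2 and 173.1 CPM in normal chow (-0.75 ± 0.30, SE; edgeR adjusted p = 0.434). Srebf1, the regulator of lipid synthesis, chosen after its values were seen, had 0.16 ± 0.12.

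Among insulin-like growth factors and their binding proteins, 0 of 11 passed by any of the 3 tools or at an unadjusted p below 0.05, and the median was -0.026. Igfbp2, the binding protein that stood next to Igfbp1 by p, was at 475.5, 634, 324 and 393 CPM in high salt and at 374, 281.5, 332.8 and 430.8 CPM in normal chow, and the groups overlapped. The values of Igfbp1 and Igfbp2 had opposite signs, with 0.36 ± 0.21 for Igfbp2, which was 0.16 without high salt 2 and 0.50 without high salt 3. Igf1 itself, chosen after its values were seen, had -0.071 ± 0.093.

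**Figure D4:**
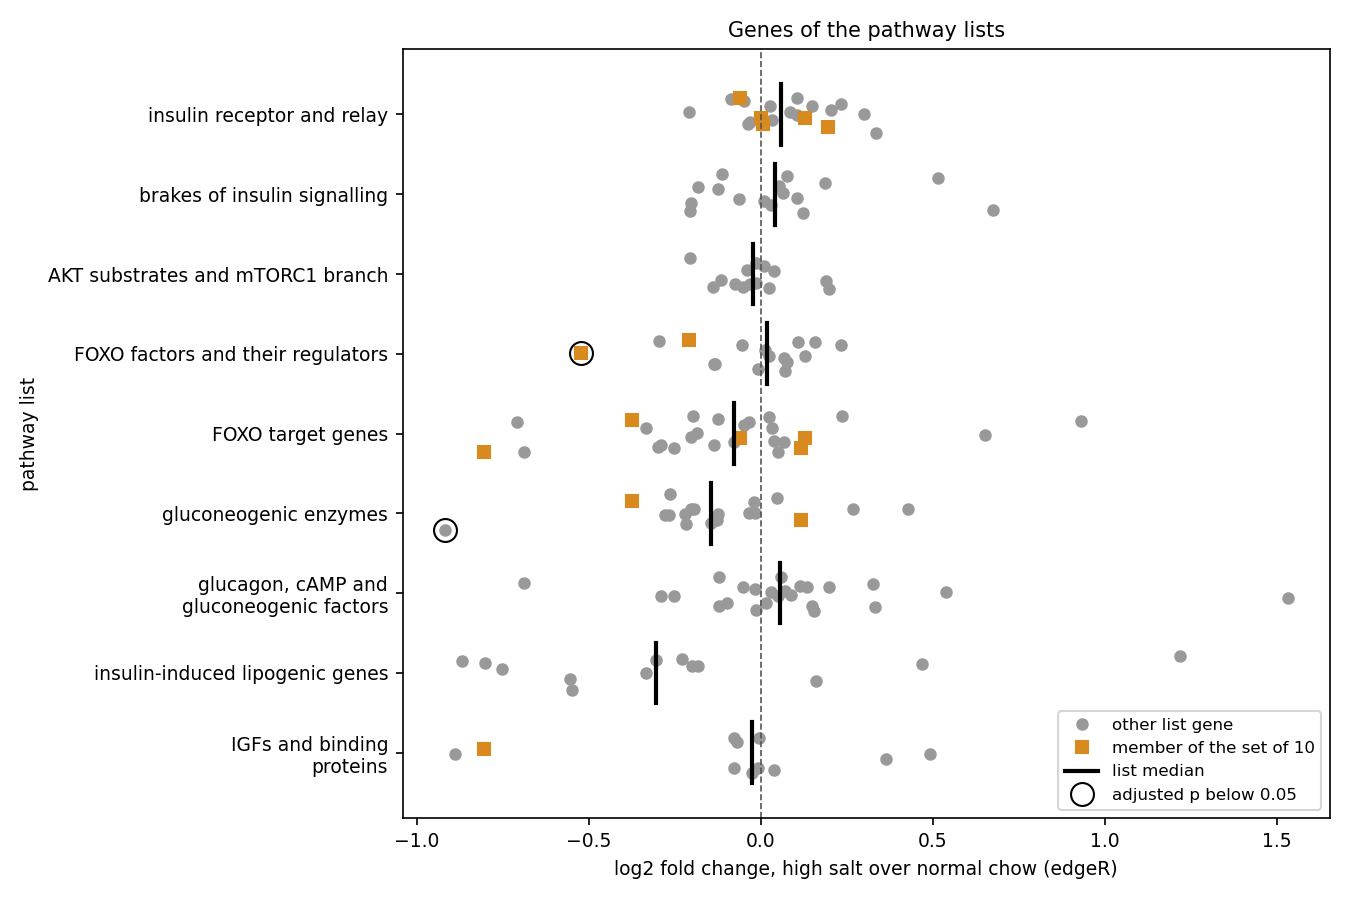
log2 fold change of high salt over normal chow (x axis) for every tested gene of the 9 pathway lists (rows); orange squares are the 10 members, grey points the other genes, black lines the list medians, and open circles the genes with an edgeR adjusted p below 0.05. Foxo1 and Got1 carry the only open circles, and the list medians lie between -0.30 and 0.058.

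The genes whose level followed Foxo1 most closely over the 8 libraries included Wbp1l, Cdkn2aip, St3gal1 and Akap11, with Pearson's r of 0.97, 0.97, 0.95 and 0.94 on log2 CPM. The likeness includes the difference between the diets; with the group means removed the same r were 0.87, 0.85, 0.76 and 0.78. All 4 were lower in every high-salt library than in any normal-chow library, against 3.37% of all tested genes. They were picked for following Foxo1, whose groups do not overlap, so nothing is read from this. The r with group means removed were likewise read on genes picked by the full r. By edgeR 1 of the 4, St3gal1, was called (-0.61 ± 0.10, SE; edgeR adjusted p = 0.0293). St3gal1 was at 68.1, 57.3, 66.5 and 69.7 CPM in high salt, against 95.2, 115.0, 83.6 and 105.0 CPM in normal chow.

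The authors' deposited table, whose test the labels do not name, gives Foxo1 a log2 fold change of -0.53 (adjusted p = 8.78e-04) and Pck1 one of -0.38 (adjusted p = 0.0106). No other member has an adjusted p below 0.05 in the authors' deposited table, in which 0.880% of genes with an adjusted p are below it and lower. Neither gene is among those the authors' deposited table marks as significant. That mark does not follow the adjusted p alone. In the same table Got1, with an adjusted p = 1.18e-11, is not marked, and Nr4a1, with an adjusted p = 0.00371, is marked.

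**Figure D5:**
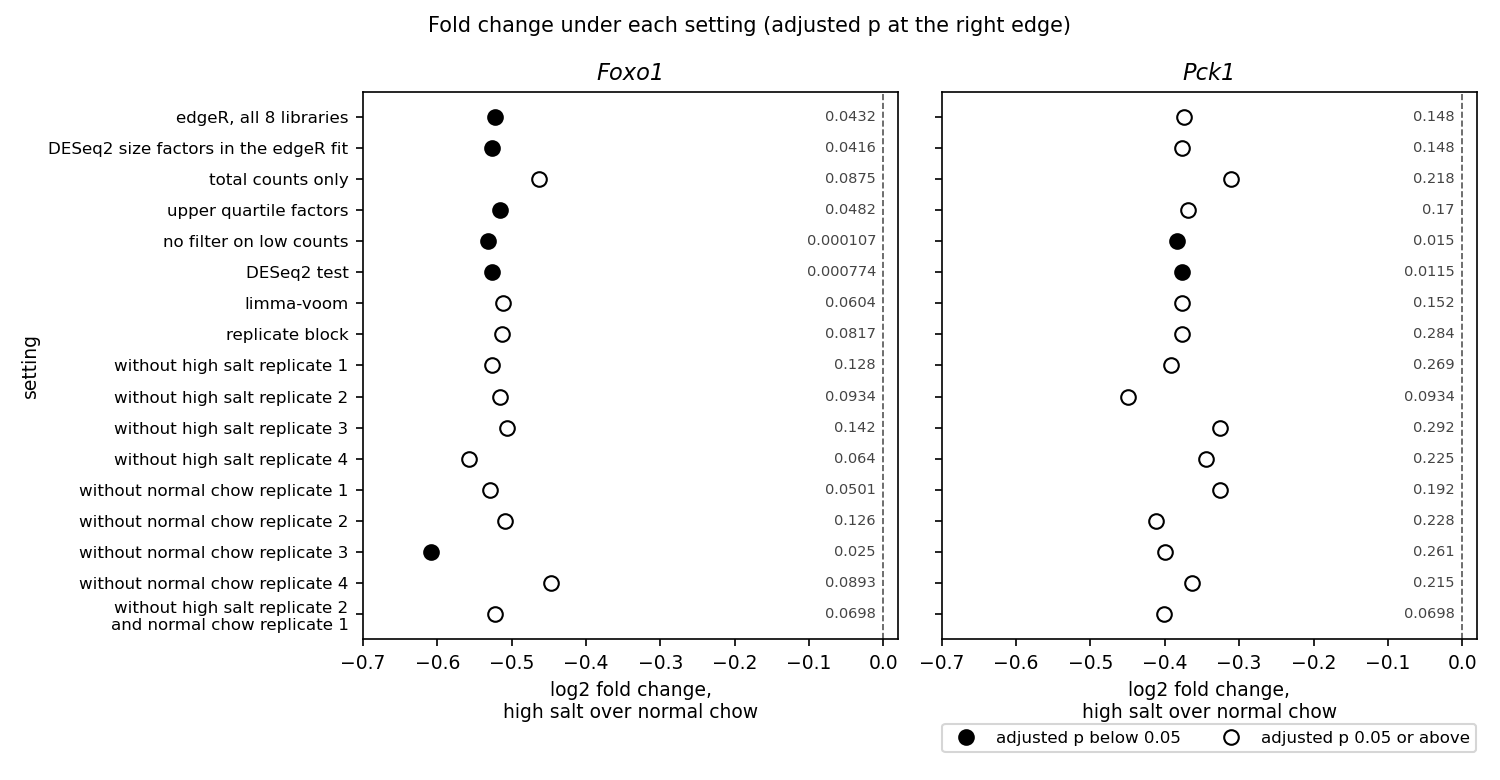
log2 fold change of Foxo1 (left) and Pck1 (right) under each setting of the processing (rows), with filled points for an adjusted p below 0.05, open points for 0.05 or above, and the adjusted p at the right edge. Every point lies below 0; those of Foxo1 run from -0.61 to -0.45.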

How the data were processed

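RNA of mouse liver was sequenced in 8 libraries, and these, 4 on high salt and 4 on normal chow, were grouped by the diet label. Raw counts of reads per gene were deposited, 1 column a library. The same deposited table holds the authors' own comparison: a fold change, the log2 of it, and p-values before and after adjustment. Without roles, GRCm38 and the tools HTSeq 0.6.0, HISAT2 2.1.0 and StringTie 1.3.2d are listed in the submitters' processing notes. Of 24317 genes, 23 symbols turned into dates were restored from the ID. The diets were compared with edgeR 4.0.16 in R 4.3.3 (TMM, filterByExpr, robust quasi-likelihood test, 13341 genes, Benjamini-Hochberg, called below 0.05, two-sided). SEs come from the fold change and its F statistic. DESeq2 1.42.0 and limma-voom (limma 3.58.1, robust) were alternatives, and all 3 were tested on simulated data. Exon lengths come from GENCODE M21, whose coordinates matched the table in all 10 members, and windows from RefSeq. Within groups, chi-square per degree of freedom between libraries was 9.69 to 36.6, so each was counted once. Each member had at least 174 reads in a library, and the part of its spread that stems from counting was not tested. Members, lists and tests were chosen with earlier results of these data known. Named genes are the members, the called genes of each list or its 2 of smallest p, the 5 most like Foxo1 with a mean of at least 1 CPM (on log2 CPM, prior count 2), and marker genes. Some genes that this rule names are not reported here.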

Additional observations from a re-analysis of the deposited data

Results flagged for a closer look

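Grb14, an adaptor that restrains the insulin receptor, was at 37.7 CPM in normal chow 2, the lowest value of its group, whose other values were 43.75 to 44.8 CPM. High-salt libraries had 43.5 to 53.8 CPM. Its gap to the nearest library was over Dixon's 95% critical ratio for 4 samples. It was the 1 such case in 48 groups of values from 24 genes, where chance gives about 1 in 20. No value of the 10 members was over that ratio.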

How the results depend on the processing

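Foxo1 kept its direction in every setting run, and its call ended with total-count scaling (-0.46, adjusted p = 0.0875), with limma-voom (-0.51, adjusted p = 0.0604) and without high salt 2 and normal chow 1 together (-0.52, adjusted p = 0.0698). Leaving out 1 library gave -0.61 to -0.45 and kept the call in 1 of 8 fits. Pck1 was called without a filter on low counts (adjusted p = 0.015) and by DESeq2. The cause of these changes was not tested. With total-count scaling 0 members, 1 gene of the pathway lists and 11 lower genes over the whole table were called. With limma-voom these counts were 0 and 1, with 17 genes over the whole table, 9 lower and 8 higher. Without a filter they were 2 and 8, with 220 genes, 131 lower and 89 higher, and with DESeq2 2 and 8, with 239 genes, 141 lower and 98 higher. Without high salt 2 and normal chow 1, 0 members and 69 genes were called, 43 of them lower and 26 higher. Leaving out 1 library moved the count of 40 genes to between 4 and 57, the lower ones to between 1 and 32 and the higher ones to between 2 and 25, with 0 to 1 members and 1 to 2 genes of the pathway lists. The fewest calls, 4 without normal chow 2 and 5 without high salt 1, compare with 11 without normal chow 3 and 18 without high salt 2. Total-count scaling moved the median log2 fold change of all genes to 0.066, and the sign of Insr with it (0.0002).

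Members near 0 changed sign. Akt1 had -0.0027 with DESeq2 size factors and with DESeq2, -0.0086 without a filter, -0.14 without high salt 2 and normal chow 1, and -0.092 to 0.061 when 1 library was left out. Akt2 had -0.0036 without a filter, -0.024 without the same 2 libraries, and -0.030 to 0.029 when 1 library was left out. Irs2 ran from -0.17 to 0.29 and G6pc from -0.25 to 0.33 when 1 library was left out. The titles carry the numbers 1 to 4 in both groups. Libraries of the same number deviated from their group means with correlations of -0.195 to 0.0865 over genes. Of 4 such pairs, 0 correlated best with each other. With 4 libraries a group this cannot exclude pairing, and the labels do not say that the numbers pair libraries. With the replicate block Foxo1 had -0.51 (adjusted p = 0.0817), with 0 members, 1 gene of the pathway lists and 11 genes over the whole table called, 3 lower and 8 higher.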
